A study of Drosophila melanogaster with 2 samples.

Results

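The weaker promoter regions described here are places near gene starts where chromatin immunoprecipitation gave a peak in both replicates but not one strong enough for the authors' reproducible list. There were 2794 of them, among 22792 merged regions of the pooled peak list. They came from whole Drosophila melanogaster embryos of both sexes, collected between 0 and 24 h, of 1 transgenic line carrying E(spl)mβ-HLH tagged with GFP at its C terminus. The label names the E(spl)mβ-HLH protein as the antibody target. Both biological replicates, labelled 1 and 3, form 1 group, and no other group was analysed here. The assay title and antibody field of both samples describe an immunoprecipitation of a transcription factor, whereas their free-text description calls them an input control, and every value below carries this conflict. The control named by the file descriptions was not analysed here, and depth is unknown because the lists carry no counts of reads. Whole embryos mix all cell types, so a weak peak in many cells and a strong one in few cannot be told apart.

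A region was a member when a pooled peak on arms 2L, 2R, 3L, 3R, 4 or X lay over 1 kb from every reproducible peak, overlapped a peak of each replicate by at least 1 bp, and had its summit within 1 kb of the transcription start site (TSS) of a protein-coding gene. Reproducible peaks are those that the authors kept by the irreproducible discovery rate (IDR). Of 30000 pooled peaks, 18963 lay over 1 kb from the 5744 reproducible peaks, and 4752 of these had a summit near a TSS. In all, 3819 overlapped both replicates, and merging overlapping peaks left 2794 regions, of which 1893 held 1 peak, 794 held 2, 90 held 3 and 17 held 4. Signal, replicate overlap and TSS distance chose the members and are given as description. Intervals on shares are 95% Wilson intervals and cover counting error only.

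E(spl) proteins are basic helix-loop-helix repressors of the Hairy/E(spl) family. Most genes of the Enhancer of split complex are switched on by Notch signalling, and their products recruit the corepressor Groucho and keep cells from a neural fate. They bind DNA as dimers at the words CACGTG and CACGCG and at related N-boxes. Fly promoters hold words for other factors as well. DREF and M1BP are factors of broadly active promoters, the GAGA factor opens promoter chromatin, and GATA factors act in gut, blood and fat body.

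Words of the kind bound by E(spl) proteins are shown first, because they name the sequence that the tagged protein is known to bind. The stretches below are RefSeq sequence of the dm6 build, plus strand, and capitals mark the word, which was sought on both strands. Each is among the highest in pooled signal with its word near the summit and no annotated untranslated region in the stretch. CACGCG lay within 100 bp of the summit in 7.09% (6.19 to 8.10%) of the regions, and in 6.41% of 19252 windows of the same length around all TSS positions. CACGTG lay there in 2.36% (1.86 to 2.99%) of the regions and in 2.80% of the TSS windows. A match is a run of letters and not a binding site.
CG6006 (chr3R:16157947-16158002): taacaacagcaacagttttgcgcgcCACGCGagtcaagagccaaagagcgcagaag
Bmcp (chr3L:11720873-11720928): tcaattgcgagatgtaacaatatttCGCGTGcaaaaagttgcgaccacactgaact
CG7888 (chr3L:11055925-11055980): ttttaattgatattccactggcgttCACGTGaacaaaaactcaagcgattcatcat
CG14556 (chr3R:26126125-26126180): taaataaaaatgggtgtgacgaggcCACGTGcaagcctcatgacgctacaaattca

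The next stretches hold the words that stood out most from the flank, TATCGATA of DREF and the GGTCACACT core of M1BP. TATCGATA is its own reverse complement. It lay within 100 bp of 3.61% of summits and in 6.45% of windows around all TSS positions. GGTCACACT was found at 3.33% of summits and in 4.42% of TSS windows.
CG12081 (chrX:8588736-8588793): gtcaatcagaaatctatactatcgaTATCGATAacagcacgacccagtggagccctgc
ND-15 (chr2L:114578-114635): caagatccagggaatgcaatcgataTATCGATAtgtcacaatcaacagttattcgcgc
CG46311 (chrX:13563682-13563740): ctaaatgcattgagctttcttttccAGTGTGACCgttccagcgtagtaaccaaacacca
Bmcp (chr3L:11720835-11720893): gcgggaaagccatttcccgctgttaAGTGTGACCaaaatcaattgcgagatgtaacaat

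The third set holds GAGAGAG of the GAGA factor, GATAAG of GATA factors and TCAGTT, a form of the initiator at which transcription starts. In the Shawl stretch TCAGTT lies 40 bp upstream of the nearest TSS, so the stretch does not show the word at an annotated start. GATAAG lay near 15.9% of summits and in 12.3% of all TSS windows, GAGAGAG near 5.98% and in 4.69%, and TCAGTT near 18.6% and in 21.9%. ND-15, a subunit of respiratory complex I, had both the DREF word and the GATA word near its summit.
sky (chr2L:20890406-20890462): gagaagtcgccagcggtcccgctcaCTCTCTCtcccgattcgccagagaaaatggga
ND-15 (chr2L:114540-114595): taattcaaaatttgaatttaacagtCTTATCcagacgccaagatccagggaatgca
CG45060 (chrX:9868988-9869043): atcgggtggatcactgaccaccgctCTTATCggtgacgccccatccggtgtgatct
Shawl (chr2L:9415168-9415223): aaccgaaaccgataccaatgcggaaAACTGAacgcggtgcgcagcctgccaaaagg

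The summits stood close to gene starts, although the rule allowed 1 kb. The median distance to the nearest TSS was 146 bp in weaker promoter regions, 390 bp in 837 promoter regions missing from a replicate, and 102 bp in 3370 reproducible promoter regions. Summits within 100 bp of a TSS made up 41.6% (39.7 to 43.4%) of weaker promoter regions, 22.2% (19.5 to 25.2%) of those missing from a replicate and 49.4% (47.7 to 51.1%) of reproducible ones. In the weaker regions 59.4% of summits lay upstream of the TSS. The share within 100 bp was 24.2% in the fifth of the regions with the lowest pooled signal and 56.7% in the fifth with the highest. A region near TSSs of several genes was less usual than among reproducible regions, at 19.5% (18.0 to 21.0%) against 36% (34.4 to 37.6%).

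**Figure D1:**
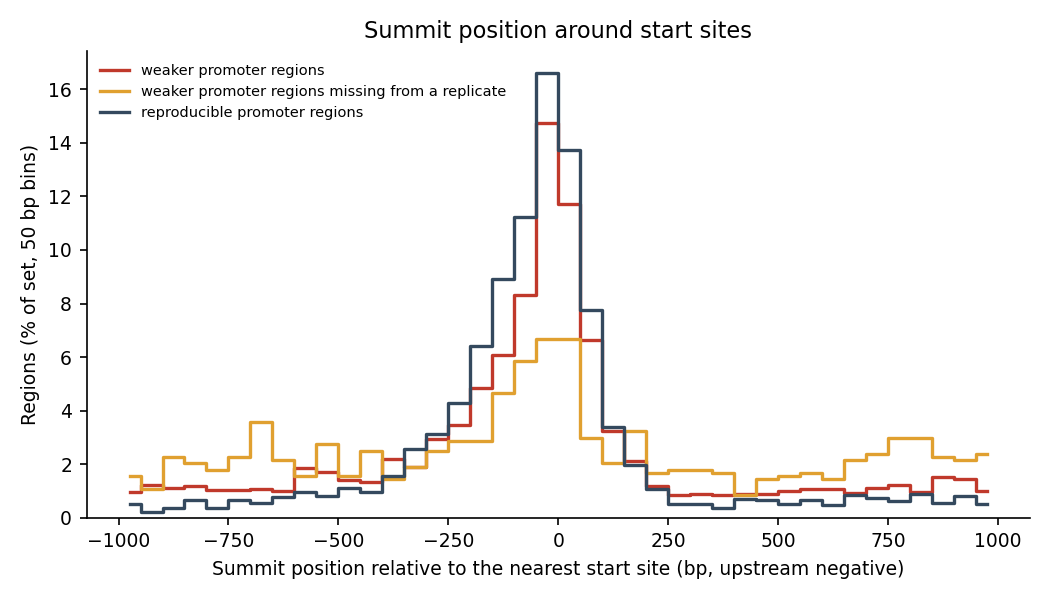
Position of the summit relative to the nearest TSS (x axis, bp, upstream negative) as a share of each set (y axis, percent, in 50 bp bins), for weaker promoter regions, those missing from a replicate and reproducible promoter regions. The bin just upstream of the TSS held 14.7% of weaker regions, 6.69% of those missing from a replicate and 16.6% of reproducible ones.

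Replicate overlap followed pooled signal. Among pooled peaks away from reproducible peaks, 80.4% (79.2 to 81.5%) of the 4752 near a TSS overlapped a peak of each replicate, against 66.0% (65.2 to 66.8%) of 14211 with no TSS within 1 kb. The rest near a TSS comprised 481 peaks with replicate 1 only, 390 with replicate 3 only and 62 with neither. The peaks near a TSS had a median pooled signal of 81.2, against 56.7 for the others. The share with both was 46.2% in the fifth of promoter peaks with the lowest signal, against 36% (34.7 to 37.3%) of other peaks in that range of signal. In the other 4 ranges, low to high, it was 72.4, 89.9, 96.2 and 97.2% of promoter peaks, against 70.8, 91.5, 96.8 and 97.3% of other peaks. The list of each replicate holds 30000 peaks and includes background.

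The pooled signal of the regions ran between 35.8 and 184, with a median of 109, against a median of 48.0 in regions missing from a replicate and 310 in reproducible ones. Signal is the authors' value for a peak, comparable only inside 1 list. The strongest member ranked 5745 in the pooled list, next to the weakest reproducible peak at 5744, with pooled signals of 183.559 and 183.584. The member nearest to a reproducible peak lay 1002 bp away, and the nearest peak just outside that limit lay 999 bp away. At the TSS limit the corresponding distances were 999 bp inside and 1001 bp outside. The gap to the nearest reproducible peak had a median of 4880.5 bp, and 50.9% of the regions lay within 5 kb of one.

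The signals of the replicates were compared as a description. Signal in replicate 1 and replicate 3 had a Spearman rho of 0.40 across the 2794 weaker regions, against 0.75 across 3314 reproducible promoter regions with a peak in each. The reproducible list, kept by IDR, begins at a pooled signal of 183.584, and the members end at 183.559. Both sets are thus bounded by pooled signal, so selection bears on both coefficients and their difference is not a result. Of the 3370 reproducible promoter regions, 3314 had a peak in each replicate. Within 5 equal groups by pooled signal, low to high, rho was 0.03, -0.48, -0.68, -0.65 and -0.66. Pooled signal was derived from both replicates, so grouping by it limits how far both can rise together. These values therefore do not measure agreement between replicates. The replicates' summits lay a median of 55 bp apart in weaker regions and 26 bp apart in reproducible ones. The overlapping peak with the nearest summit was among the 5744 strongest of replicate 1 in 136 regions and of replicate 3 in 195. This held for both in 7 regions and for neither in 2470 (88.4%). With the strongest overlapping peak the counts were 156 for replicate 1, 232 for replicate 3 and 20 for both.

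**Figure D2:**
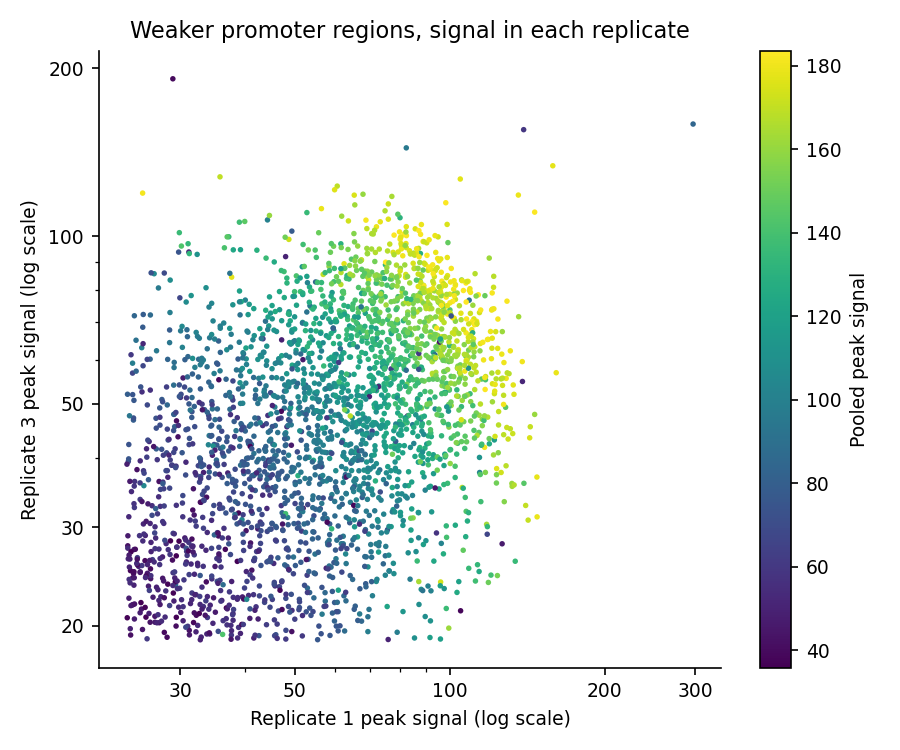
Signal of the replicate 1 peak (x axis, log scale) and of the replicate 3 peak (y axis, log scale) in each of the 2794 weaker promoter regions, coloured by pooled signal. Replicate 1 signal ran between 23.6 and 297 and replicate 3 signal between 18.9 and 192, and the point farthest right is CG42808.

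The 10 regions of highest pooled signal lay near Srrm234, Ns3, Shal, Rgk3, CG12081, ND-15, Opbp, CG45060, CG10621 and SNF4Agamma. Shal encodes a voltage-gated potassium channel and SNF4Agamma the gamma subunit of AMP-activated kinase. The region of Srrm234, a splicing factor gene, had a pooled signal of 184 with its summit 8 bp upstream of the TSS, 108 in replicate 1 and 76.2 in replicate 3. Ns3, a nucleostemin-type GTPase gene, had a pooled signal of 184, with 112 in replicate 1 and 69.7 in replicate 3. Opbp, a zinc finger factor gene, had a pooled signal of 183, with 103 and 81.5 in replicates 1 and 3. Their ranks within each replicate ran between 3611 and 9428. The 5 lowest lay near CG31710, CG9759, Stat92E, CG31883 and blo, with pooled signals between 35.8 and 36.4. Stat92E, the transcription factor of the JAK/STAT pathway, had 36.2, with 28.7 in replicate 1 and 28.4 in replicate 3.

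Some regions stood far apart in the replicates. At HDAC6, which encodes a cytoplasmic deacetylase, the peak had a signal of 25.3 in replicate 1, rank 28219, and 119 in replicate 3, rank 3378. At Smyd3 the signals were 29.0 in replicate 1 and 192 in replicate 3, with a pooled signal of 39.4, and the replicate 3 summit lay 199 bp from the pooled summit. Across the 10 regions with the largest gap in rank the replicate summits lay between 0 and 453 bp from the pooled summit, so the paired peaks may not be the same. Vap33, CG42245 and wdp were the others with the largest gap in this direction. In the other direction were Alk, kek6, CG34040, phu and CG30339. Alk, a receptor tyrosine kinase gene, had 96.0 in replicate 1, rank 7009, and 18.9 in replicate 3, rank 29847. kek6, which encodes a transmembrane protein with leucine-rich repeats, had 91.6 and 19.0 in replicates 1 and 3. CG42808 was high in both replicates, with 297 in replicate 1, rank 1050, and 159 in replicate 3, rank 1986, while its pooled signal was 84.2, rank 13932. Its replicate summits lay 193 bp and 166 bp from the pooled summit. levy, a cytochrome oxidase subunit gene, was also among the highest in each replicate, with 159 in replicate 1 and 134 in replicate 3. Lis-1, CG14683 and CG5162 were the others highest in replicate 1, and CG6833 and Cnx99A the others highest in replicate 3.

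Weaker promoter regions reached 2616 of 13945 protein-coding genes, or 18.8%, and reproducible ones reached 3877, or 27.8%. Both kinds were found at 409 genes. Of the 10068 genes with no reproducible region, 2207 had a weaker one, which is 21.9%. A total of 575 genes had 2 or more weaker regions. mtd, which encodes a protein with TLDc and LysM domains, had 8, with pooled signals between 40.7 and 139, and 11 TSS positions. Pax, the paxillin adaptor gene, and bun, a TSC-22 family factor gene, had 6 each. Genes with more TSS positions had a weaker region more often. The share was 15.2% (14.5 to 15.9%) at genes with 1 position, 22.6% with 2, 34.8% with 3 and 54.3% (49.6 to 58.9%) with 4 or more, and the rule allows a match at each position.

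A larger share of X-linked genes than of genes on chromosomes 2 and 3 had a weaker region, described here without a test. A weaker region was found at 25.2% (23.5 to 27.1%) of 2196 X-linked genes and at 17.5% (16.8 to 18.2%) of 11669 genes on chromosomes 2 and 3. Reproducible regions were found at 28.3% of X-linked genes and 27.8% of the autosomal ones. Among genes with 1 TSS position the weaker share was 20.4% (18.5 to 22.5%) on X and 14.2% (13.5 to 15%) on the autosomes. At genes with 4 or more positions the intervals overlapped, with 58.9% (48.6 to 68.5%) on X and 53.3% (48.1 to 58.5%) on the autosomes. The embryos were of both sexes, and the part of X copy number was not tested. On the small chromosome 4, also an autosome, 24 of 80 genes had a weaker region, or 30% (21.1 to 40.8%), and 21.25% had a reproducible one.

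**Figure D3:**
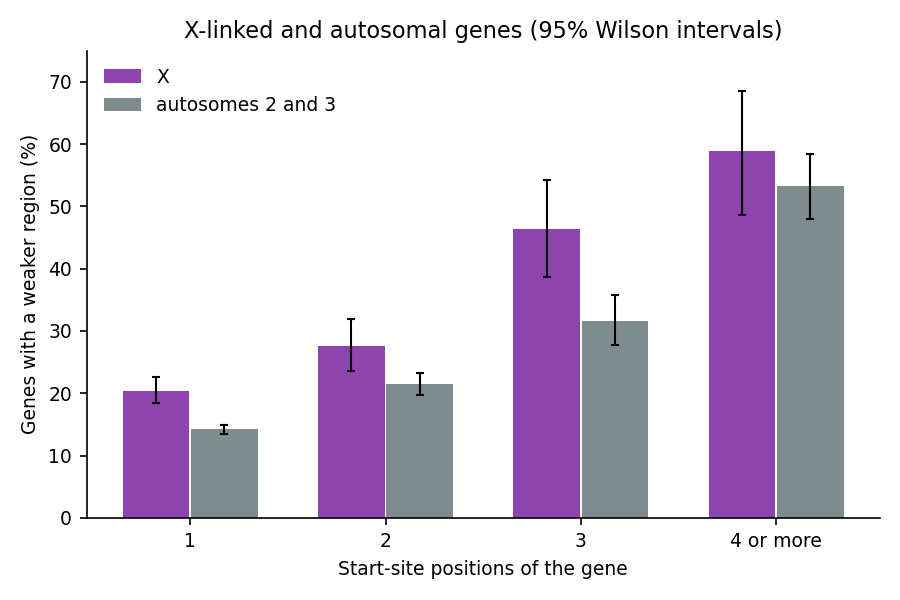
Share of genes with a weaker promoter region (y axis, percent, with 95% Wilson intervals) on X and on autosomes 2 and 3, by the number of TSS positions of the gene (x axis). The share at genes with 1 position was 20.4% on X and 14.2% on the autosomes.

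The genes were then grouped by role in 47 lists. Counts are read against the 18.8% of all genes with a weaker region, lists take no test, and their genes can share a region. Genes outside the 3 of highest signal in a list were picked after their values were seen. In the E(spl) complex 1 of 12 genes had a weaker region, E(spl)m2-BFM, a Bearded family gene. Its summit lay 63 bp upstream of the TSS, with a pooled signal of 135, 57.3 in replicate 1 and 86.0 in replicate 3. Reproducible regions lay at E(spl)malpha-BFM, E(spl)mbeta-HLH and Kaz-m1. The other 8 genes had neither: E(spl)mgamma-HLH, E(spl)m8-HLH, E(spl)m4-BFM, E(spl)m7-HLH, E(spl)mdelta-HLH, E(spl)m6-BFM, E(spl)m3-HLH and E(spl)m5-HLH. The rule leaves out weaker peaks within 1 kb of a reproducible one, so having neither kind does not show that no peak lay there. None of 6 other Hairy-type repressor and Groucho genes and none of 4 Bearded family genes outside the complex had a weaker region. Reproducible regions were found at 4 of those 6 genes and at 0 of those 4, against 27.8% of all genes.

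Signalling lists are given first. For each signalling list in this paragraph and the next, the interval of the share included the 18.8% of all genes. Of 22 Notch pathway genes 4 had one, or 18.2%, namely Psn, Nak, Bre1 and O-fut1. Psn, the presenilin subunit of gamma-secretase, had a pooled signal of 159, with 82.8 in replicate 1 and 84.6 in replicate 3. Nak, a kinase of endocytosis, had 156, and Bre1, a histone ubiquitin ligase, 132. JAK/STAT pathway genes counted 5 of 13, or 38.5% (17.7 to 64.5%). Socs36E, a feedback inhibitor, had 173 pooled, with 126 in replicate 1 and 37.6 in replicate 3. The others by signal were Su(var)2-10, the PIAS inhibitor, with 168 and hop, the Janus kinase, with 159. The Dpp pathway, the fly BMP pathway, had 8 of 26, led by its transducer Mad with 164. The ligand gene dpp had 139, with 104 in replicate 1 and 42.5 in replicate 3.

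The other signalling lists covered growth, patterning and stress pathways. Wingless genes counted 5 of 26, with arm, the fly beta-catenin, at 171 and dsh at 163. EGFR genes counted 4 of 24, and 13 of those 24 had a reproducible region. Hedgehog genes counted 3 of 16, and ptc, the receptor, had 183, with 78.0 in replicate 1 and 100 in replicate 3. Hippo genes counted 4 of 18, with the kinase gene wts at 151. JNK pathway and AP-1 genes counted 5 of 15, or 33.3% (15.2 to 58.3%), with egr, the fly TNF, at 183 and kay, the fly Fos, at 177.

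Genes of differentiated neurons and muscle stood highest among the lists of over 20 genes. Of 30 pan-neuronal and synaptic genes 17 had a weaker region, or 56.7% (39.2 to 72.6%), and of 21 without a reproducible region 13 did. Shab, a potassium channel gene, had a pooled signal of 175, with 83.6 in replicate 1 and 94.1 in replicate 3. Rdl, a GABA receptor gene, had 168, with 90.8 and 76.0 in replicates 1 and 3. Syt1, the synaptotagmin calcium sensor of vesicle release, had 167, with 61.5 and 86.0 in replicates 1 and 3. Weaker regions also lay at brp, para, nSyb, Syn and elav. Such genes have many TSS positions, and the shares by TSS number over all genes would give 29.5% for this list.

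In the list of muscle structure, 12 of 23 genes had a weaker region, or 52.2% (33.0 to 70.8%), against 31.3% by their TSS number. Reproducible regions were found at 3. Tm1, a tropomyosin gene, had a pooled signal of 170, with 140 in replicate 1 and 32.9 in replicate 3. Mlc2, the myosin regulatory light chain, had 121, with 60.0 and 51.8 in replicates 1 and 3. Mf had 105, with 52.9 and 53.5 in replicates 1 and 3. With the 15000 strongest peaks of each replicate alone, the muscle count was 4 of 23 against a background of 12.4%, and the neuronal count was 14 of 30.

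Regulators of these tissues had lower shares than the neuronal and muscle structure lists. Proneural and other bHLH factors had 3 of 34, Fer2, Fer3 and Oli, with a reproducible region at 10. Neuroblast and temporal factors had 2 of 25, brat and aPKC, with a reproducible region at 5. Mesoderm and muscle regulators had 2 of 22, how and Mef2, with a reproducible region at 3. For each of these regulator lists the interval of the share included the 18.8% of all genes. Mef2, the master factor of muscle differentiation, had 163, with 103 in replicate 1 and 79.0 in replicate 3. Segmentation genes had 1 of 31 (0.572 to 16.2%), tsl, with a reproducible region at 3. Hox and homeotic genes had 1 of 11 (1.62 to 37.7%), exd, whose region lay nearest to CG46312, and a reproducible region at 0. Glial genes had 2 of 17 (3.29 to 34.3%), loco and Eaat1, with a reproducible region at 7.

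Families of detoxification, digestion and cuticle are given next. Cytochrome P450 genes counted 23 of 83, or 27.7% (19.2 to 38.2%), against 16.5% by their TSS number, and 11 had a reproducible region. With the 15000 strongest peaks of each replicate alone the count was 15 of 83, against a background of 12.4%. Cyp9b2 had a pooled signal of 173, with 114 in replicate 1 and 72.9 in replicate 3. Cyp4e2 had 168 and Cyp28d1 had 156. Cyp6a20 and Cyp6a9 share 1 region, and so do Cyp4d2 and Cyp4d14, so genes of a cluster do not count independently. Trypsins and Jonah proteases of the gut counted 7 of 27, with Jon65Aiii at 144. Cuticle protein genes counted 18 of 123, or 14.6% (9.46 to 21.9%), against 16% by their TSS number, and 1 had a reproducible region. Gut genes counted 4 of 15 and had a reproducible region as often, and trachea and epidermis genes counted 6 of 21, with a reproducible region at 5.

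Housekeeping lists varied. Rab GTPase genes, which direct vesicle traffic, counted 9 of 28 and had Rab40 at 182. Vacuolar proton pump subunits counted 9 of 29, with Vha26 at 163, and Vha16-3 and Vha16-2 share 1 region. Mitochondrial ribosomal protein genes counted 12 of 73 and proteasome subunits 7 of 48. Cytosolic ribosomal protein genes counted 4 of 87, and 74 had a reproducible region. The rule leaves out peaks near a reproducible one. Of the 13 genes without a reproducible region 4 had a weaker one, or 30.8%, against 21.9% of all such genes. The 4 were RpS10a, RpS19b, RpS5b and RpS15Ab, each a second gene for its protein. RpS10a had a pooled signal of 145, with 107 in replicate 1 and 43.7 in replicate 3. Heat shock and chaperone genes counted 1 of 26, Hsp23, and 13 had a reproducible region.

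Some families had hardly any region of either kind. Chemosensory receptor genes counted 6 of 179, or 3.35% (1.55 to 7.12%), and 3 had a reproducible region. The count was 13 when overlap with replicate 1 was not asked and 10 when overlap with replicate 3 was not. Or45b had 143, with 90.3 in replicate 1 and 64.0 in replicate 3, and Gr21a, a carbon dioxide receptor gene, had 131. None of 23 Osiris genes, 19 eggshell and yolk genes or 111 replication-dependent histone genes had one. The histone genes are tandem copies, and how the authors placed reads from repeated sequence is not given in the sources used here.

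**Figure D4:**
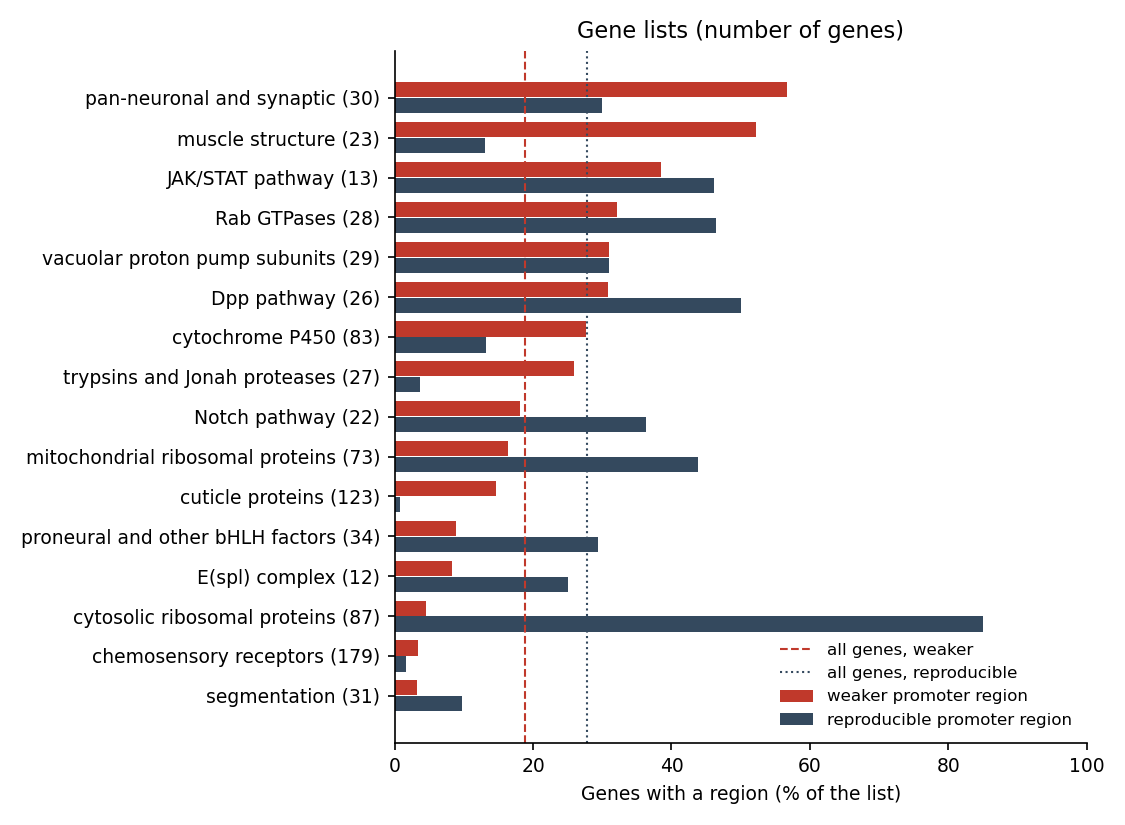
Share of genes with a weaker promoter region and with a reproducible promoter region (x axis, percent of the list) for 16 of 47 gene lists, shown after their values were seen, with the number of genes in brackets. Dashed and dotted lines mark all genes, 18.8% weaker and 27.8% reproducible, and the weaker bar of the pan-neuronal list reaches 56.7%.

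The rule did not read sequence, but it placed the summits near TSSs, where several of the words lie, so the tests against the flank compare windows nearer to a TSS with windows farther from one. Each of 20 words was sought within 100 bp of the summit and in a window 500 bp to one side, by the exact McNemar test adjusted by Benjamini-Hochberg over the 20 words. In total 8 words were higher at the summit and 2 were lower. Among the 1053 regions with the summit over 250 bp from a TSS, with the flank on the side away from it, 2 words were higher, the GATA word and the repeat CACACAC, and 0 were lower, with 5 words in all at an unadjusted p under 0.05. This split was chosen after seeing the data.

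The largest ratios belonged to words of broadly active promoters, and the calls of the M1BP and DREF words rested on the regions near a TSS. The M1BP word was at 3.33% of summits against 0.358% of flanks, a log2 ratio of 3.22 (exact adjusted p = 1.04e-16). The DREF word was found in 3.61% of summit windows and 0.680% of flanks (log2 ratio 2.41, exact adjusted p = 1.08e-13), and the GAGA factor word at 5.98% against 2.72% (log2 ratio 1.14, exact adjusted p = 9.40e-09). Both the M1BP word and the DREF word were most frequent near the TSS, at 6.80% and 7.92% of summits within 100 bp of one and at 0.285% and 0.380% of those beyond 250 bp. In regions over 250 bp from a TSS the DREF word was in 4 summit windows and 5 flanks and the M1BP word in 3 and 1, and the GAGA factor word, at 4.37% and 2.56%, had an exact adjusted p of 0.138. Regions with the M1BP and DREF words had median pooled signals of 140 and 139, against 108 in regions without the word in each case. In all, 350 regions (12.5%) held a DREF, M1BP or GAGA factor word, and 9 held both the DREF and the M1BP word.

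GATAAG occurred in 15.9% of summit windows and 10.5% of flanks (log2 ratio 0.60, exact adjusted p = 9.91e-09). TCAGTT lay at 18.6% against 13.4% (exact adjusted p = 7.94e-07), and CACACAC, a repeat, at 9.91% against 6.91% (exact adjusted p = 0.000215). CACACAC missed the threshold in a window of 50 bp on each side (exact adjusted p = 0.0876) and in the stronger regions by pooled signal (exact adjusted p = 0.0726). GATAAG was present at 14.1% of summits within 100 bp of a TSS and 16.2% of those beyond 250 bp, and TCAGTT at 26.4% and 14.2%. Beyond 250 bp GATAAG lay at 16.2% of summits against 10.8% of flanks (exact adjusted p = 0.00367) and CACACAC at 10.2% against 5.03% (exact adjusted p = 0.000368). TCAGTT lay there at 14.2% against 14.5% (exact adjusted p = 0.949).

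Among the words of E(spl) proteins, CACGCG occurred in 7.09% of summit windows and 4.58% of flanks (log2 ratio 0.63, exact adjusted p = 0.000226). Beyond 250 bp from a TSS its shares were 5.51% and 4.27% (exact adjusted p = 0.458). The N-box form CACGAG lay at 6.55% against 4.80% (exact adjusted p = 0.0101), and missed the threshold without replicate 3 (log2 ratio 0.32, exact adjusted p = 0.0717). CACGTG did not pass, with 2.36% of summits and 2.51% of flanks (exact adjusted p = 0.834). CACCAG, at 6.23% against 8.95%, and the E-box CAGGTG, at 6.76% against 8.77%, were lower at the summit. CACCAG missed the threshold in a window of 50 bp on each side (exact adjusted p = 0.0736) and in the stronger regions by pooled signal (exact adjusted p = 0.232). The word of Su(H), the DNA-binding partner of Notch, did not pass, with 2.47% of summits and 2.25% of flanks (exact adjusted p = 0.778). Either CACGTG or CACGCG lay near 258 summits, or 9.23% (8.22 to 10.4%).

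**Figure D5:**
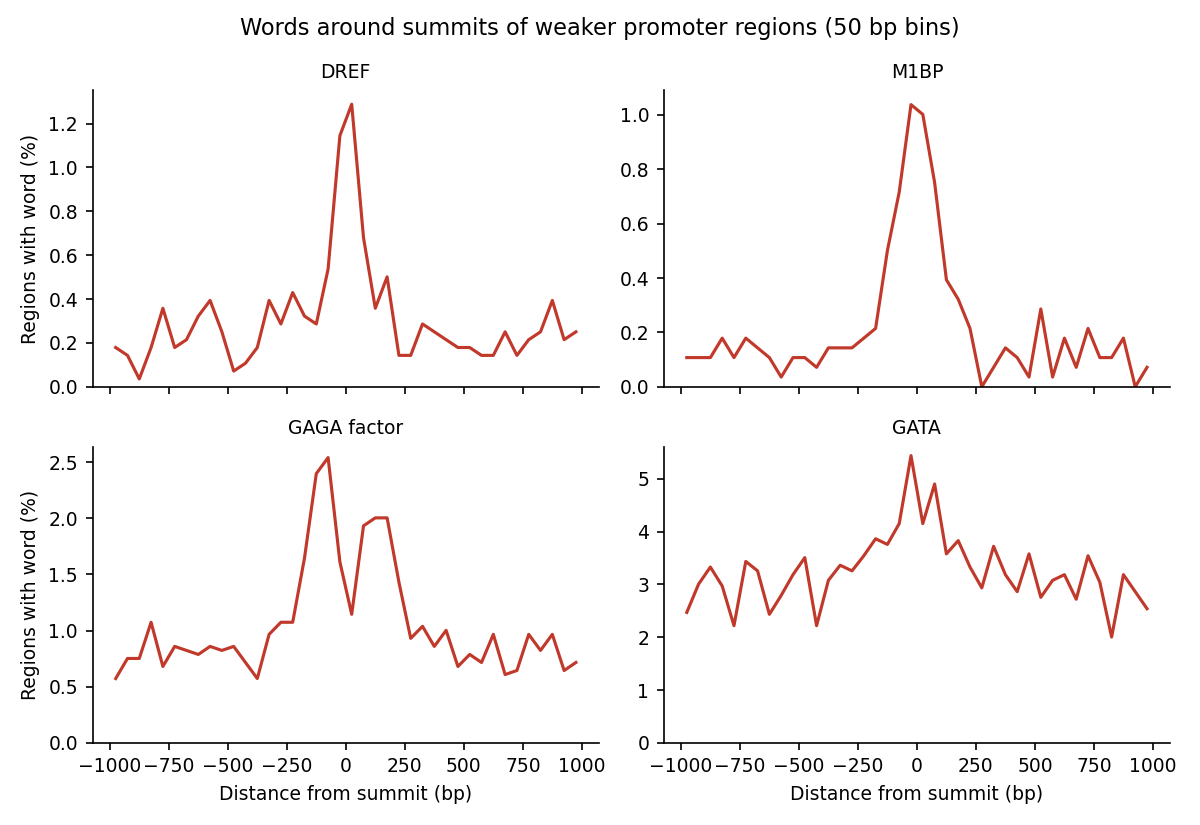
Share of the 2794 weaker promoter regions with the DREF, M1BP, GAGA factor or GATA word (y axis, percent, each panel with its own scale from 0) by distance from the summit (x axis, bp, in 50 bp bins). The DREF and M1BP words peaked at the summit, at 1.29% and 1.04%, while the GAGA factor word was at 1.15% just right of the summit with higher bins on both sides.

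Against reproducible promoter regions, 9 of the 20 words differed by the two-sided Fisher's exact test adjusted over the 20 words. Lower in weaker regions were CACGTG, at 2.36% against 3.92% (log2 ratio -0.73, exact adjusted p = 0.00206), the N-box form CACTAG, at 3.94% against 6.35%, and CAGCTG, an E-box of bHLH activators, at 11.1% against 14.3%. The DREF word was at 3.61% against 6.02% (log2 ratio -0.74, exact adjusted p = 0.000116), and TATAAA, the TATA box, at 23.4% against 28.7% (exact adjusted p = 5.76e-05). Higher in weaker regions were TCAGTT, at 18.6% against 15.3%, GATAAG, at 15.9% against 13%, CAAATG, at 17.8% against 15.1%, and CACGAG, at 6.55% against 4.99%. The M1BP word did not pass, with 3.33% against 3.17% (exact adjusted p = 0.773), nor did CACGCG, with 7.09% against 8.58% (exact adjusted p = 0.0656), although it passed as lower without replicate 1 (exact adjusted p = 0.0215) and without replicate 3 (exact adjusted p = 0.0164). CACGAG missed the threshold without replicate 3 (exact adjusted p = 0.0577). In a window of 50 bp on each side CACGTG (exact adjusted p = 0.172), the DREF word and CAGCTG (exact adjusted p = 0.0693 each) and CACGAG (exact adjusted p = 0.464) did not pass. In a window of 250 bp on each side 1 word was higher and 8 were lower: GATAAG (exact adjusted p = 0.0501), CAAATG (exact adjusted p = 0.109) and CACGAG (exact adjusted p = 0.388) did not pass, while the GAGA factor word, the word CACGCG and the repeat passed as lower. CAAATG did not pass with summits within 500 bp (exact adjusted p = 0.0769) or 250 bp (exact adjusted p = 0.083) of a TSS in both sets. The windows had a median GC content of 42.8% in weaker and 40.8% in reproducible regions, and its part was not tested. Summits within 250 bp of a TSS made up 62.3% of weaker and 75.3% of reproducible promoter regions. With summits within 500 bp or within 250 bp of a TSS in both sets, 7 words passed, 2 higher and 5 lower in weaker regions. Such limits do not match the sets in distance, and the part of distance was not tested.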

How the data were processed

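Peak lists of 2 replicates, a pooled list and a reproducible list were analysed, on dm6 per the labels. The authors deposited a signal value per peak, used to rank peaks within a list, and a −log10 q-value, which the authors' lists cap and which was not used to rank. Per the deposited file descriptions, each list came from an alignment set beside a control. The peak caller, aligner and IDR cut-off were not stated in these sources. Depth is unknown.

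Genes came from Ensembl release 115 (13945 protein-coding genes, 19607 TSS positions) and sequence from the RefSeq copy of dm6. Each merged region took summit and signal from its strongest pooled peak. Its value in a replicate was that of the overlapping peak with the nearest summit, a choice made after values were seen in place of the strongest overlapping peak. 12 pooled summits pointed past the peak end and were set to its last base.

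Words were compared by exact McNemar and two-sided Fisher's exact tests with Benjamini-Hochberg adjustment over 20 words and a threshold of 0.05. Regions, not embryos, are the units of these tests, which measure no spread between collections. The code was tested on simulated data. The members and lists were chosen with earlier results of these data known, and 6 of 47 lists were corrected for wrongly matched genes after values were seen. The shares by TSS number and the split of X by TSS number were added then as well. Of 579 symbols searched, 48 had no match. Named genes were the 10 regions of highest and 5 of lowest pooled signal, the 5 highest in each replicate, the 5 most different in rank each way, every E(spl) complex gene, and up to 3 genes of a list by pooled signal. Others named (the genes with most regions, and further genes of small counts or of the neuronal list) were chosen after their values were seen. The tools were Python 3.11.15 with numpy 2.4.6, pandas 2.3.3, scipy 1.17.1 and matplotlib 3.10.9. Alternatives are given in the closing section.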

Additional observations from a re-analysis of the deposited data

How the results depend on the processing

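No paired analysis was possible because both samples belong to 1 group. The count of 2794 regions and of 2616 genes became 1591 and 1730 when only the 15000 strongest peaks of each replicate were used. Under every other alternative run they stayed within 1.5 times. The share of promoter peaks found in both replicates, 80.4%, was 84.6% with a TSS window of 500 bp, 70.2% when 1 peak of each replicate had to cover at least 0.5 of the pooled peak and 47.8% with the 15000 strongest. Leaving out 1 replicate gave 88.6 to 90.5%, since overlap was then asked of 1 list. The median TSS distance, 146 bp, was 91 bp within the 500 bp window, 169 bp when reproducible peaks only had to be free of overlap, 109 bp with the 15000 strongest, 161 bp from peak midpoints, and 157 to 167 bp without 1 replicate. The Spearman rho of 0.40 between replicates was 0.45 when each replicate's strongest overlapping peak was used, and then 20 regions in place of 7 were among the strongest of both. The strongest-peak alternative and those on gene lists and on X were chosen after seeing the data.

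The word count against the flank was 10, and 7 to 11 when window, flank, signal, overlap or replicate was changed, among them 9 to 11 without 1 replicate. With summits over 250 bp from a TSS and the flank away from it, an alternative also added after seeing the data, it was 2, and the DREF word turned to -0.32 and TCAGTT to -0.038 on the log2 scale. CACGAG missed the threshold in a 50 bp window, a 250 bp window, the stronger regions by pooled signal, and without replicate 3 (adjusted p = 0.0717 by the exact McNemar test). In a 250 bp window CACTAG turned to 0.27 and CATCTG to -0.20 on the log2 scale. Against reproducible regions 9 words passed, and 5 in a 50 bp window, where CACGTG, the DREF word, CAGCTG and CACGAG no longer did, and 10 without replicate 1 or without replicate 3. CACACAC turned to -0.23 in a 250 bp window. CACGAG and CAAATG passed neither in the 500 bp nor in the 250 bp TSS window. The causes were not tested.

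The chemosensory count of 6 was 13 without replicate 1 and 10 without replicate 3, against backgrounds of 20.5% and 20.7%. The ribosomal protein count of 4 was 12 when reproducible peaks only had to be free of overlap. The X share was above the autosomal one under all 8 alternatives, between 15.8% against 11.7% and 32.0% against 23.8%. With no read counts, depth cannot be weighed, and the control was not analysed here.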
